A study of Mus musculus with 6 samples.

Results

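The proteasome degrades proteins that carry a ubiquitin chain, and its subunits are encoded by genes named Psma to Psmg in the mouse. H3K27ac, the acetylated form of lysine 27 of histone H3 that is found at promoters and enhancers in use, was examined here at the promoters of these genes in the retina. Members were the protein-coding genes of the GENCODE vM21 annotation (GRCm38) whose symbol starts with Psm, a letter from a to g and a digit, leaving out Psmb8 and Psmb9. This gave 48 of 21938 protein-coding genes. A promoter was the stretch within 2.5 kb of any transcription start site (TSS) of the gene, and a gene was counted as marked in a peak list if a peak overlapped it there.

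Bulk retina of WT mice, 3 months old at the first pressure elevation, was used in both groups. In the 4xIOP group (n = 3) the intraocular pressure (IOP) of one eye had been raised to 30 mmHg for 1 h, 4 times at biweekly intervals. The control group (n = 3) held contralateral eyes, so a whole-body effect of the procedure would be shared by both groups. Tissue was taken on day 2 from the last elevation in both groups. The treatment protocol in the labels also describes dasatinib and vehicle injections, which no label of a single sample names. Each retina is represented by 1 deposited peak list. In 4 of the 6 lists (control replicates 1 and 2, 4xIOP replicates 1 and 2) the name that the list carries is that of the other group, so every direction below holds for the groups as labelled. Nothing in the labels says whether the lists of a group came from separate mice, and p-values measure the spread between these lists.

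The 26S proteasome is built of a barrel-shaped 20S core and a 19S cap. The core stacks rings of alpha subunits (Psma genes), which gate the entrance, on rings of beta subunits (Psmb genes), 3 of which carry the active sites. The cap unfolds substrates with a ring of ATPases (Psmc genes) and recognises and deubiquitinates them with non-ATPase subunits (most Psmd genes). Psme genes encode other activators of the core, Psmf1 an inhibitor, and Psmg genes chaperones that assemble the core. When proteasome activity falls, cells raise transcription of subunit genes together through NFE2L1, which binds antioxidant response elements, and photoreceptors are known for a high load of protein turnover.

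The lists are not equal in depth. Their genome mean background, expressed as fragments per 10000 bp, ranged from 87.4 to 173, with the highest value in control replicate 2, and they held 16195 to 36509 peaks, with the most in control replicate 3. A level below is the number of fragments at the summit of the strongest promoter peak divided by the genome mean background of that list. Levels were high throughout control replicate 3, where the median over the 8669 genes marked in all 6 lists was 28.8, against 10.9 to 16.9 in the other 5 lists. A gene is therefore also given as a percentile of its level among these 8669 genes in the same list. Of 10 photoreceptor genes 8 were marked in all 6 lists, with a median percentile of 93.3, while Crx was marked in 5 and the cone gene Arr3 in 0. Of 5 bipolar cell genes Otx2, which is also a factor of photoreceptor cells, was marked in all 6 and the others in 1 or 2. Of 5 Müller glia genes Glul was marked in all 6, Slc1a3 in 3 and the others in 0. All 5 microglia genes and 3 of 5 ganglion cell genes were marked in none, as were Rpe65, Best1, Rlbp1 and Tyr of the pigment epithelium, whose gene Mitf was marked in 5. Apoa2, a liver gene, was marked in all 6 lists and Ckm, a muscle gene, in 4, while the liver gene Alb, the muscle gene Myh2 and the T cell genes Cd3e and Cd3g were marked in 0. In a whole tissue, a change in the number of cells that carry the mark and a change in acetylation per cell cannot be told apart.

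RefSeq promoter windows (GRCm38.p6) were matched by symbol for 40 of the 48 members. Those without one were Psma8, Psmb1, Psmb2, Psmb7, Psmc3, Psmd3, Psmd7 and Psmg2. The 250 bases before the start site are shown for 8 members, written 5′ to 3′ on the strand of the gene. The first 3 are the members with the highest H3K27ac levels and the next is that with the lowest level among members marked in all 6 lists, in each case among members with a window. Capitals mark CCAAT boxes and, where present, the motif of ETS factors spelled CCGGAAG, on either strand.
Psma3, chr12:70974373-70974622, plus strand: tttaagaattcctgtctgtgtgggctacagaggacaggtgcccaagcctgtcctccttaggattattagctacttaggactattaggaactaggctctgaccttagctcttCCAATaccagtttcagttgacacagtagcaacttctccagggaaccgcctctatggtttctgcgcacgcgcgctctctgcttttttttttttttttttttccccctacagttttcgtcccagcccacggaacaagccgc
Psma7, chr2:180042465-180042714, minus strand: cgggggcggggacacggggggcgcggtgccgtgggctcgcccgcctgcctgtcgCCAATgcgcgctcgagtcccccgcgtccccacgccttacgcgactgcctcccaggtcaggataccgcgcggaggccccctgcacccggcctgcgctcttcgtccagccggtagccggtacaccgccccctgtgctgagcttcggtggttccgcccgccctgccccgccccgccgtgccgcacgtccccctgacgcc
Psme4, chr11:30771525-30771774, plus strand: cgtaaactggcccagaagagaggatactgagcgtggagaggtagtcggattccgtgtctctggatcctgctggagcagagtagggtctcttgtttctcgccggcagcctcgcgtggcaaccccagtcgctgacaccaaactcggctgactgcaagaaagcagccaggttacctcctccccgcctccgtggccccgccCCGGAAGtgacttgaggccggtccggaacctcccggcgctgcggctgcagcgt
Psmd4, chr3:95042615-95042864, minus strand: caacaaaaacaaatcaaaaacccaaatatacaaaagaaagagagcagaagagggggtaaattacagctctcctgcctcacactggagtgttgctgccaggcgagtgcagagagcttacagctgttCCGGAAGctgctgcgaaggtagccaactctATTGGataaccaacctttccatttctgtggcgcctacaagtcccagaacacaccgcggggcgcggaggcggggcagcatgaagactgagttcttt
The other 4 were printed because they hold the antioxidant response core (TGACNNNGC, N standing for any base), which capitals mark on either strand.
Psmb5, chr14:54617996-54618245, minus strand: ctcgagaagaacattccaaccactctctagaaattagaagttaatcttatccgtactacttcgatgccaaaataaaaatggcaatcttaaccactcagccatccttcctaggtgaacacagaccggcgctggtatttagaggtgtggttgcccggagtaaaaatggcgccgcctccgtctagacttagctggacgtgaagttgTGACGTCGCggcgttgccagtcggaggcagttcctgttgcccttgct
Psmc6, chr14:45329574-45329823, plus strand: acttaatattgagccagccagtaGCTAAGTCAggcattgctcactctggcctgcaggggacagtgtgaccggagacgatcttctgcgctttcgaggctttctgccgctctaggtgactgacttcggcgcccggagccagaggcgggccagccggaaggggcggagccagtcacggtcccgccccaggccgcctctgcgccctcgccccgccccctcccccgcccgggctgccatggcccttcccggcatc
Psmd12, chr11:107479278-107479527, plus strand: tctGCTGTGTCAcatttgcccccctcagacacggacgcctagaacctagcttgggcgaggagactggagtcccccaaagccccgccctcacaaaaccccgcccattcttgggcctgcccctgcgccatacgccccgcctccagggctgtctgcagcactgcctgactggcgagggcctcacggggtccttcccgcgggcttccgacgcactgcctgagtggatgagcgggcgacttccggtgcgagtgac
Psmd9, chr5:123227940-123228189, plus strand: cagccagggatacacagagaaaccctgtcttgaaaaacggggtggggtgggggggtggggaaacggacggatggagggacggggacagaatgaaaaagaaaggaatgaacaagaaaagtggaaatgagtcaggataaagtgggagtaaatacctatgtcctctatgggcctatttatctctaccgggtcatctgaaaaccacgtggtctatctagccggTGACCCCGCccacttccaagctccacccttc

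The antioxidant response core was found in 5 of the 40 windows (12.5%), those of Psmb5, Psmb6, Psmc6, Psmd12 and Psmd9. It began 47 bases before the start site in Psmb5, 31 in Psmd9, 9 in Psmb6, 227 in Psmc6 and 247 in Psmd12. The same letters were in 10.7% of the windows of 16522 protein-coding genes and in 12.3% of the 6823 of these that were marked in all 6 lists. The ETS motif was in 13 member windows (32.5%), against 16.8% of the marked and 9.45% of all protein-coding genes. A CCAAT box was in 12 (30.0%, against 36.1% of the marked and 36.0% of all). A GC box (GGGCGG) was in 21 (52.5%), below the 62.4% of the marked and above the 44.3% of all protein-coding genes. The letters AAGATGG, the core bound by YY1, were in 4 (10.0%, against 4.62% of the marked and 4.10% of all), and the CRX core TAATCC was in 3 (7.50%, against 5.00% and 5.96%). A TATA box (TATAAA) was in 3 (7.50%, against 5.25% of the marked and 11.9% of all) and the NRF1 core (GCGCATGC) in 2 (5.0%, against 5.72% and 3.13%). The cyclic AMP response element (TGACGTCA) was in 0 (against 3.34% and 2.08%), as was the heat shock element (against 0.26% and 0.34%). Both strands were searched, the letters of different motifs can overlap, and a match is a description of the sequence. Over the 30 member windows marked in all 6 lists the median GC content was 57.4%, against 61.2% in the marked protein-coding genes, and the median ratio of observed to expected CpG was 0.787 against 0.784. Over all 40 member windows these medians were 57.4% and 0.766, against 56.0% and 0.558 over all protein-coding genes. GC content was 48.0% in Psma3 and 77.2% in Psma7, both among the members with the highest levels.

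H3K27ac covered most proteasome promoters in every list. In the controls 43, 38 and 45 of the 48 members were marked, and in 4xIOP 42, 41 and 42, so the groups overlapped. As a share this was 87.5% ± 7.51 (SD, n = 3) in control against 86.8% ± 1.20 (SD, n = 3) in 4xIOP. Over all protein-coding genes the share was 50.6% ± 5.64 in control against 45.9% ± 1.42 in 4xIOP. In all 6 lists 37 members were marked (77.1%), against 39.5% of all protein-coding genes. No member was marked in every control list and no 4xIOP list, for which the share over all genes was 0.36%, and none showed the opposite pattern, for which it was 0.0%.

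The 3 members with no promoter peak in any list were Psma8, the alpha subunit of spermatogenic cells, Psmb11, the catalytic beta subunit of the thymus cortex, and Psme2b, a copy of Psme2 without introns. Psmb10, an interferon-inducible catalytic subunit, was marked in all 6 lists. Its control levels were 13.7, 9.17 and 23.1 (replicates 1 to 3, the order used throughout) and its 4xIOP levels 12.9, 17.0 and 14.0, near the middle of the members. Its summit was 373 to 1742 bp downstream of the start site, farther inside the gene than in most members. Psmb8 and Psmb9, the other inducible catalytic subunits, lie outside the rule. Psmb8 had a peak in control replicates 1 and 3 and in no 4xIOP list. Its levels of 5.93 and 6.075 were near the lowest of any peak in those lists (4.106 and 3.645). Psmb9 had a peak in every control list (9.124, 8.874 and 6.886) and in 4xIOP replicate 3, where its level of 17.54 was above those of the controls.

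Another 8 members were marked in 1 to 5 lists, and control replicate 2, the list with the highest background, lacked 7 of them. Psma5, an alpha ring subunit, had levels of 8.67 and 17.8 in control replicates 1 and 3 and of 11.4, 7.54 and 6.24 in 4xIOP. Psmd14, the deubiquitinase of the cap, had 8.21 and 15.8 in control replicates 1 and 3 and 11.4, 11.3 and 7.79 in 4xIOP. Psme3, the activator subunit of the nucleus, had 10.5 and 21.9 in control replicates 1 and 3 and 7.96, 10.4 and 11.7 in 4xIOP. In these 3 genes the peak was missing from control replicate 2 only, and the levels of the groups overlapped. Psmc3ip matches the naming rule but encodes a factor of meiotic recombination, not a proteasome subunit. It had levels of 6.84, 7.99 and 31.2 in the controls and 12.4 and 8.57 in 4xIOP replicates 1 and 3, with no peak in 4xIOP replicate 2. Control replicate 3 thus lay well above its other lists.

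Of the catalytic subunits, Psmb6 was marked in 4 lists, with levels of 9.12 and 13.4 in control replicates 1 and 3 and of 5.47 and 5.07 in 4xIOP replicates 1 and 3. Before any centring both 4xIOP levels were below both control levels. They rested on 11 and 13 summit fragments, close to the fewest of any peak in those lists (9 and 10). The lists also differ in scale. The medians over the 8669 genes were 16.0 and 28.8 in control replicates 1 and 3. In 4xIOP replicates 1 and 3 they were 16.9 and 11.3. Relative to these medians the Psmb6 levels of control replicate 3 and 4xIOP replicate 3 nearly met. Psmb6 encodes the subunit with caspase-like activity, and it was not among the genes fitted, which needed a peak in all 6 lists. Psmb5, the subunit with chymotrypsin-like activity, was marked in all lists, with levels of 13.2, 11.5 and 25.9 in control against 16.4, 15.6 and 10.9 in 4xIOP. Psmb7, the subunit with trypsin-like activity, had 13.2, 7.69 and 22.3 in control against 13.4, 9.42 and 9.35 in 4xIOP. For Psmb5 and Psmb7 the groups overlapped, and the difference of the centred log2 level (defined below) was 0.10 ± 0.17 and -0.04 ± 0.17 (limma SE).

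The remaining 3 incompletely marked genes had peaks in few lists. Psmb3, a beta ring subunit, was marked in control replicates 1 and 3 (levels 9.12 and 19.9) and in 4xIOP replicate 2 (9.90). Its neighbourhood had a raised local background, 2.63 to 5.15 times the genome mean at the promoter peaks, and 4xIOP replicates 1 and 3, without a promoter peak, had a peak at -2904 and -3370 bp from the start site (negative, upstream). Psmd8, a cap subunit, was marked only in control replicate 3, by a summit of 56 fragments where the local background was 6.01 times the genome mean. In 5 lists (not 4xIOP replicate 3) other peaks were called at -3356 to -3991 bp from the start site of Psmd8, outside the promoter. Psmd10, the cap assembly chaperone also known as gankyrin, had peaks only in control replicate 3, of 15 and 14 fragments at a background equal to the genome mean. The part of depth and of local background in these missing calls was not tested.

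**Figure D1:**
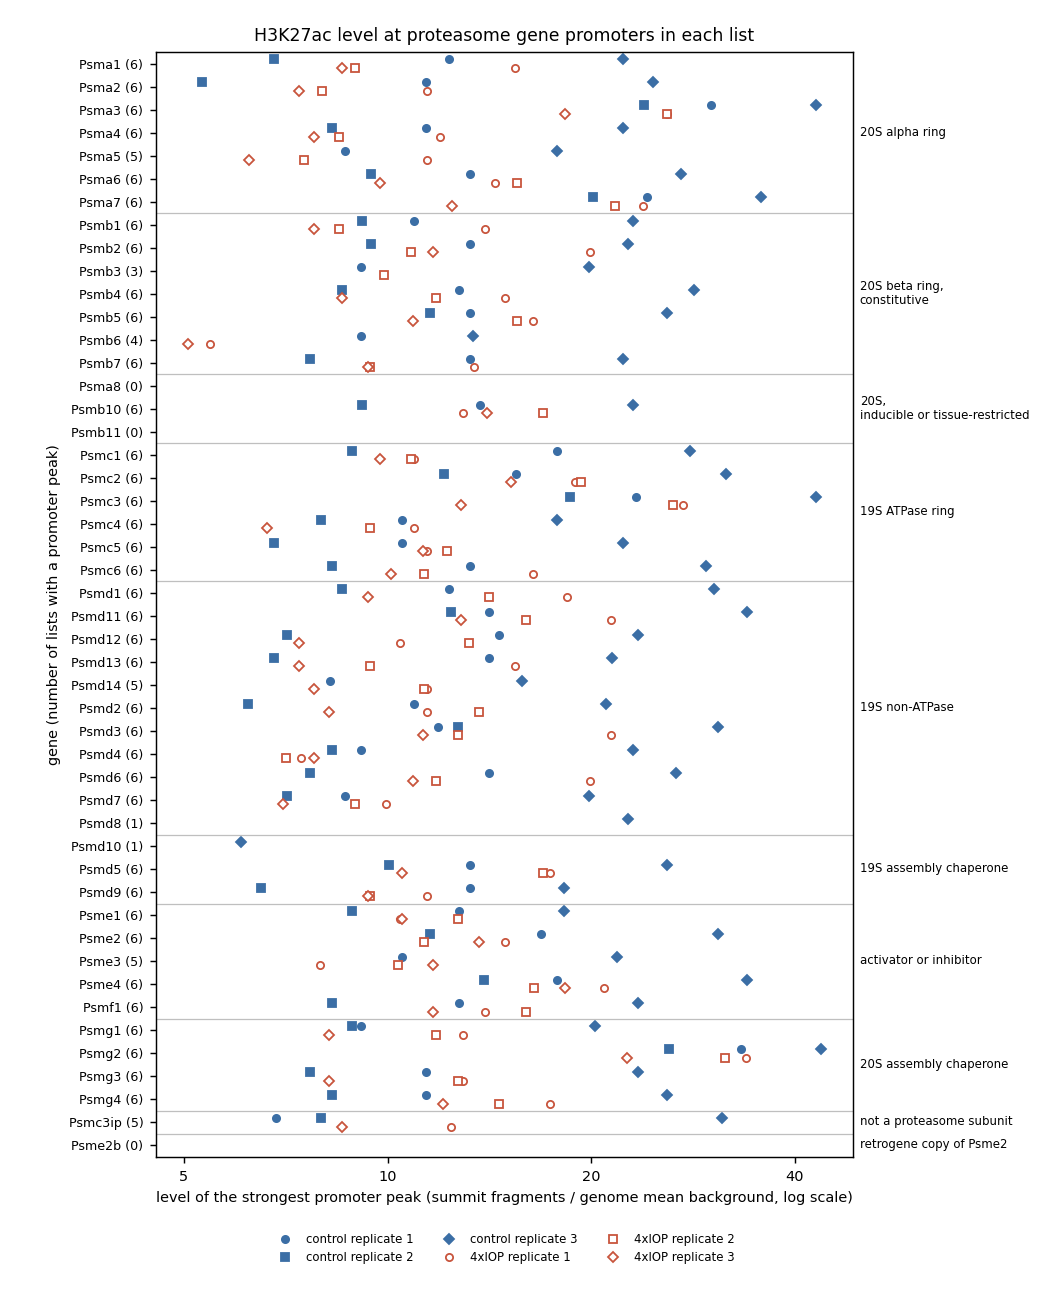
Level of the strongest promoter peak (summit fragments over the genome mean background, log axis) of each of the 48 members in each list, grouped by role, with filled symbols for control and open symbols for 4xIOP. Control replicate 3 (filled diamonds) lies to the right of the other lists in nearly every gene, and Psmg2, Psma3, Psmc3 and Psma7 have the highest mean levels.

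Among the 37 members marked in all lists, the level at the summit was low for a marked promoter. The median percentile of the members was 30.9, 26.3 and 33.5 in the control lists, and it was 36.4, 34.2 and 37.5 in the 4xIOP lists, where 50 is the middle of all marked genes. The mean percentile over the lists was below 50 for 29 of the 37 members and above 75 for 4. These 4 were Psmg2, Psma3, Psmc3 and Psma7. The order of the members was shared between lists, with Spearman's rho of 0.573 to 0.763 over the 15 pairs of lists, a description over 37 genes that share their libraries. Over all 8669 marked genes rho was 0.719 to 0.849.

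Psmg2, a chaperone of the 20S core, had the highest level, 33.3, 26.0 and 43.7 in control against 33.8, 31.6 and 22.6 in 4xIOP. It stood at the 95.5th percentile on average and shares its promoter with Cep76, whose start site was nearer to the summit in 4 of the 6 lists. Psma3, an alpha ring subunit, followed with 30.1, 24.0 and 42.9 in control against 25.9, 25.9 and 18.3 in 4xIOP (91.3rd percentile). Psmc3, an ATPase of the cap, had 23.3, 18.6 and 42.9 in control against 27.4, 26.4 and 12.9 in 4xIOP (84.5th percentile). Psma7, an alpha ring subunit, had 24.2, 20.1 and 35.6 in control against 23.9, 21.7 and 12.5 in 4xIOP (79.5th percentile). In each of these genes control replicate 3 was the highest list and the ranges of the groups overlapped. Psme4, the activator PA200, had 17.8, 13.9 and 34.0 in control against 20.9, 16.5 and 18.3 in 4xIOP. Psmc2, an ATPase of the cap, had 15.5, 12.1 and 31.6 in control against 18.9, 19.3 and 15.2 in 4xIOP. Both stood above the middle of all marked genes, at the 70.7th and 63.9th percentile. Psmd11, a scaffold subunit of the cap, had 14.1, 12.4 and 34.0 in control against 21.4, 16.0 and 12.9 in 4xIOP. Psmd3, another scaffold subunit, had 11.9, 12.7 and 30.8 in control against 21.4, 12.7 and 11.3 in 4xIOP. From these genes on, the means lay close together, and the order of neighbours is not resolved by the spread of the lists.

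The lowest level belonged to Psmd7, a non-catalytic partner of Psmd14, with 8.67, 7.10 and 19.9 in control against 9.95, 8.95 and 7.01 in 4xIOP. Psmd4, a ubiquitin receptor of the cap, had 9.12, 8.28 and 23.1 in control against 7.46, 7.07 and 7.79 in 4xIOP. Psmc4, an ATPase of the cap, had 10.5, 7.99 and 17.8 in control against 10.9, 9.42 and 6.62 in 4xIOP. These 3 genes stood at the 9.18th, 12.2nd and 11.7th percentile on average. Psmd9, a chaperone of the ATPase ring, had 13.2, 6.51 and 18.2 in control against 11.4, 9.42 and 9.35 in 4xIOP. Psma2, an alpha ring subunit, had 11.4, 5.32 and 24.7 in control against 11.4, 8.01 and 7.40 in 4xIOP. Each of the 5 remained marked in every list, with no fewer than 15 fragments at the summit.

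Subunits of 1 assembly did not have 1 level. The mean level ran from 11.4 to 27.9 over the 6 alpha ring genes marked in all lists, from 10.6 to 25.2 over the 6 ATPases and from 11.9 to 31.8 over the 4 core chaperones. It was narrower over the 5 beta ring genes, 12.2 to 15.6. The 9 non-ATPase cap genes had the lowest median percentile of these roles, 23.3, and the 4 activator and inhibitor genes the highest, 43.1, with ranges that overlapped.

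The mark sat mostly just inside the gene. The median summit position over the 37 members was 189 bp downstream of the nearest start site of the gene, and it was downstream in 27 and upstream in 9, with Psme1 at 0 bp. In 32 members the summit lay within 500 bp of the start site in every list. The strongest summit was downstream in all 6 lists for 20 members and upstream in all 6 for 3 (Psma6, Psmg2 and Psme2). For 14 members the side differed between lists, as in Psma7, where the strongest summit was 179 to 219 bp upstream in 4 lists and 175 and 183 bp downstream in the other two. Psmc2 lay farthest downstream, with the summit 1634 to 1736 bp downstream of its only GENCODE start site and the first called bases of its region at chr5:21785986. A second RefSeq window of Psmc2 has its start site at position 21786747, 199 bp upstream of the median summit.

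**Figure D2:**
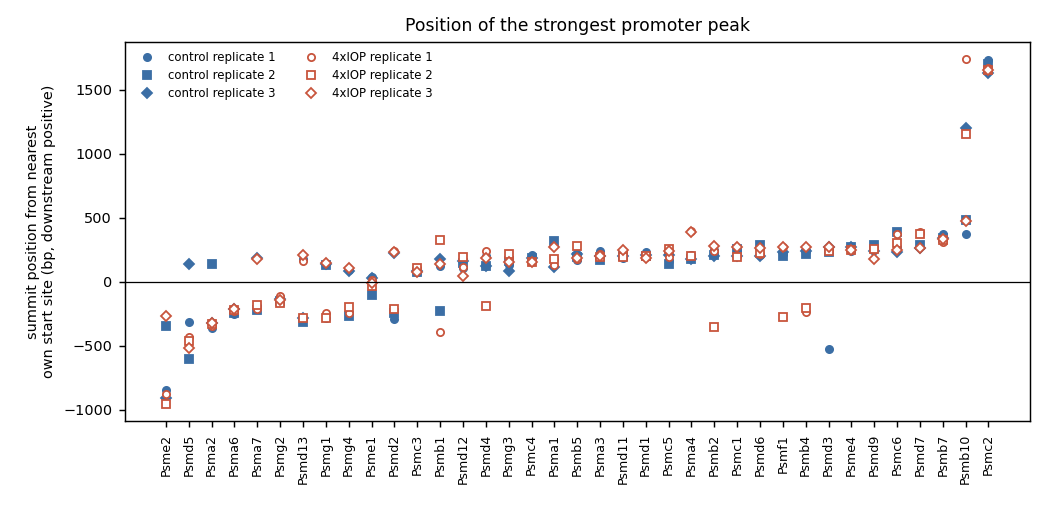
Position of the summit of the strongest promoter peak (bp from the nearest start site of the gene, downstream positive) in each list for the 37 members marked in all 6 lists, ordered by the median position. Most summits lie near the median of 189 bp downstream, and Psmc2 lies at 1634 to 1736 bp.

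A protein-coding gene started in the opposite direction within 1 kb for 9 of the 48 members (18.8%), against 9.01% of all protein-coding genes. Among genes marked in all lists the shares were closer, 21.6% of members against 18.5% of all. The partners of members were Mrpl32 (Psma2, 75 bp), Ss18l1 (Psma7, 76 bp), Tbp (Psmb1, 137 bp), Dnajc2 (Psmc2, 32 bp), Ftsj3 (Psmc5, 75 bp), Sirt3 (Psmd13, 99 bp), Atg4a (Psmd10, 179 bp), Rnf31 (Psme2, 607 bp) and Cep76 (Psmg2, 263 bp). At these promoters a peak cannot be assigned to one gene. The 8 such members marked in all lists had more of the promoter covered by peaks, with a median percentile of covered length of 60.9 against 31.0 for the other 29. Their levels were alike, with a median percentile of 36.5 against 36.0. Over all marked genes the corresponding values were 51.1 and 48.6 for covered length and 42.7 and 50.7 for level, so there the levels were less alike. These are descriptions with no test.

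To ask whether recurring IOP elevation was accompanied by a change at these promoters, 4xIOP was compared with control by limma on 3 measures, each fitted over all features of the series. The first was the normal score of the rank of the deposited fold in each list, over 10529 regions called in all 6 lists. The second was the log2 level and the third the log2 length covered by peaks, both centred on the median of the 8669 genes of each list. With Benjamini-Hochberg adjustment at 0.05, 0 of 35 member regions, 0 of 37 members by level and 0 of 37 by covered length were called. The share called over all features was 0.0% in each of the 3 fits. At an unadjusted p under 0.05 there were 2 of 35 member regions (3.17% of all regions), 2 of 37 members by level (3.29% of all genes) and 0 of 37 by covered length (4.99% of all genes). These counts moved when 1 list was dropped. The member regions numbered 0 without control replicate 1 (2.34% of all regions) and 4 without 4xIOP replicate 1 (3.19%). The members numbered 1 to 2 by level (2.52% to 6.92% of all genes) and 0 to 2 by covered length (4.26% to 6.88%). Without 4xIOP replicate 3 the shares over all features were 5.73% of regions, 6.92% by level and 6.88% by covered length.

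The differences of the members were small and went both ways. On the log2 level the median over the 37 members was 0.05, with a range of -0.43 to 0.38, and 22 were above 0. Over all 8669 genes the median was -0.01 and 48.9% were above 0. The median over members was 0.08 for the region score and 0.01 for the log2 covered length. Both fell below 0 when some single lists were left out, to -0.08 for the region score without 4xIOP replicate 1 and to -0.01 for the covered length without 4xIOP replicate 3. Without centring, the median of the log2 level over all genes was -0.27 and that of the members -0.21, and the differences here are given relative to the median of all genes.

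Psmg4, a chaperone of the 20S core, had the smallest p of the members on the region score. Its centred log2 level was -0.49, -0.40 and -0.15 in control against 0.04, -0.05 and 0.10 in 4xIOP, so that every 4xIOP list was above every control list. The difference was 0.38 ± 0.17 on the log2 level (limma, adjusted p = 0.998; 0.11 without centring) and 0.87 ± 0.32 on the score of its region, chr13:34162320-34163650 (limma, adjusted p = 1.00). Psmc5, an ATPase of the cap, had centred levels of -0.61, -0.69 and -0.37 in control against -0.56, -0.30 and 0.00 in 4xIOP. The score of its region, chr11:106255867-106256963, differed by 0.75 ± 0.32 (limma, adjusted p = 1.00), and these 2 regions are those with an unadjusted p under 0.05. For Psmc5 the difference was 0.46 on ranks of summit fragments and 0.55 without 4xIOP replicate 3, and neither had an unadjusted p under 0.05. The same held without control replicate 1 or 2 or 4xIOP replicate 2. For Psmg4 the region score difference was 0.74 without control replicate 1 and 0.73 without control replicate 2, again with no unadjusted p under 0.05. Its log2 level had none without control replicate 1 or 2 or 4xIOP replicate 1 or 3. Psmc2 had centred levels of -0.04, 0.15 and 0.14 in control against 0.16, 0.36 and 0.43 in 4xIOP, and its region score, at chr5:21785986-21787289, differed by 0.54 ± 0.30 (limma, adjusted p = 1.00). The lists of Psmc5 overlapped between the groups. Those of Psmc2 did not, by a small gap (highest control value 0.1481, lowest 4xIOP value 0.1605), and neither gene passed the adjusted threshold.

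In the opposite direction, Psmc1, an ATPase of the cap, had centred levels of 0.16, -0.30 and -0.04 in control against -0.63, -0.48 and -0.21 in 4xIOP. Its difference was -0.38 ± 0.18 on the log2 level (limma, adjusted p = 0.998), and the groups overlapped. Psmd12, a scaffold subunit of the cap, had -0.13, -0.62 and -0.29 in control against -0.70, -0.19 and -0.61 in 4xIOP, which overlapped. Its region score differed by -0.53 ± 0.34. This was -0.85 without control replicate 2, -0.36 without control replicate 1 and -0.33 on ranks of summit fragments. Its log2 level differed by -0.15 ± 0.19. Psma4, an alpha ring subunit, had -0.49, -0.40 and -0.37 in control against -0.50, -0.83 and -0.54 in 4xIOP, with values of the groups that nearly met but did not overlap, and a region score difference of -0.48 ± 0.34. The start site of another gene, AY074887, was nearer to its summit in all 6 lists. The region score difference of Psma4 was -0.78 when 4xIOP replicate 1 was left out and -0.23 when 4xIOP replicate 2 was. Psmd4 was the other member with an unadjusted p under 0.05 on the log2 level, and it was named after its values were seen. Its difference was -0.43 ± 0.20 (limma, adjusted p = 0.998), or -0.25 with a term for the class of the shortest peak length, which no longer has an unadjusted p under 0.05, with centred levels of -0.81, -0.40 and -0.32 in control against -1.18, -1.09 and -0.54 in 4xIOP that overlapped. Subunits of the same ring, such as Psmc5 and Psmc1, thus had estimates of opposite sign.

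The groups did not overlap on the centred log2 level for 4 of 37 members in the direction of higher 4xIOP (Psmc2, Psmd5, Psmf1 and Psmg4), or 10.8%, against 4.15% of all genes. In the direction of lower 4xIOP it was 1 of 37 (Psma4), against 4.38%. Psmd5, a chaperone of the ATPase ring, had centred levels of -0.27, -0.12 and -0.15 in control against 0.04, 0.17 and -0.10 in 4xIOP. Psmf1, the inhibitor of the core, had -0.32, -0.40 and -0.29 in control against -0.28, 0.09 and 0.05 in 4xIOP. The gaps of both were small beside the spread within groups.

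**Figure D3:**
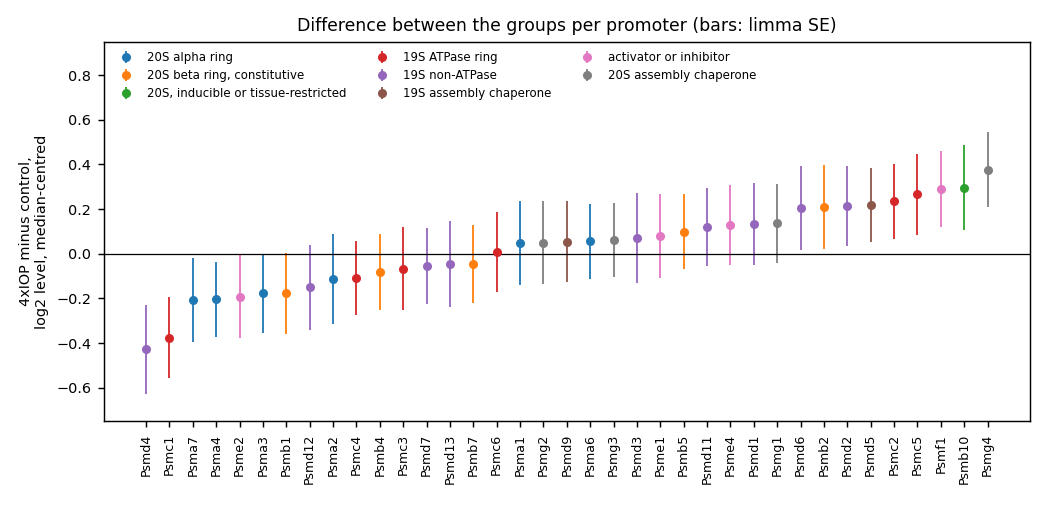
Difference of the median-centred log2 level, 4xIOP minus control, with the limma standard error, for the 37 members marked in all 6 lists, coloured by role and ordered by size. Estimates run from -0.43 (Psmd4) to 0.38 (Psmg4), roles are mixed along the order, and 0 members passed the adjusted threshold.

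Genes of the wider pathway were taken from a list of 33 symbols, of which 30 matched a gene of the annotation used. In all 6 lists 25 of them were marked, 0 were called by limma on the log2 level, and 9 of the 25 differences were above 0. Of the proteasome parts outside the naming rule, Adrm1 (a ubiquitin receptor), Sem1 (a small cap subunit), Pomp (a core assembly factor) and Akirin2 (which brings proteasomes into the nucleus) were marked in all lists, with differences of -0.16 to 0.15. All 4 regulators of proteasome genes were marked in every list. Nfe2l1, the activator of subunit genes, had a mean level of 16.0 and a difference of -0.08 ± 0.18 (limma SE). Nfe2l2, its stress-responsive relative, had 19.1 and -0.01 ± 0.18. Ddi2, the protease that activates NFE2L1, had 18.6 and -0.18 ± 0.17, and Ngly1, which removes its glycans, had 26.2 and -0.08 ± 0.21. None of the 4 had an unadjusted p under 0.05. Ubb, which encodes ubiquitin, stood above all members but Psmg2 and Psma3, and its difference was -0.13 ± 0.18. Ube3c, a ubiquitin ligase of the proteasome, had the only unadjusted p under 0.05 in the list, with a difference of -0.39 ± 0.18 (limma, adjusted p = 0.998).

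Both other large sets of housekeeping genes were more often marked in all 6 lists, and the oxidative phosphorylation genes also stood higher in level. Of 76 cytosolic ribosomal protein genes 84.2% and of 84 nuclear genes of oxidative phosphorylation 89.3% were marked in all 6 lists, against 77.1% of proteasome genes. The median percentile of the level ranged over the 6 lists from 57.5 to 72.8 in the oxidative phosphorylation genes, above the 26.3 to 37.5 of the proteasome genes without overlap. In the ribosomal protein genes it ranged from 31.7 to 54.8, which overlapped the proteasome genes. In covered length the medians were closer, at the 31.4th to 45.1st percentile in proteasome genes and the 43.1st to 56.2nd in oxidative phosphorylation genes. The share of marked promoters, as 4xIOP minus control, differed by -0.69 percentage points in proteasome genes, -4.82 in ribosomal protein genes, -1.59 in oxidative phosphorylation genes and -4.66 over all genes. These sets were compared as descriptions, and no test of the difference between them was made.

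**Figure D4:**
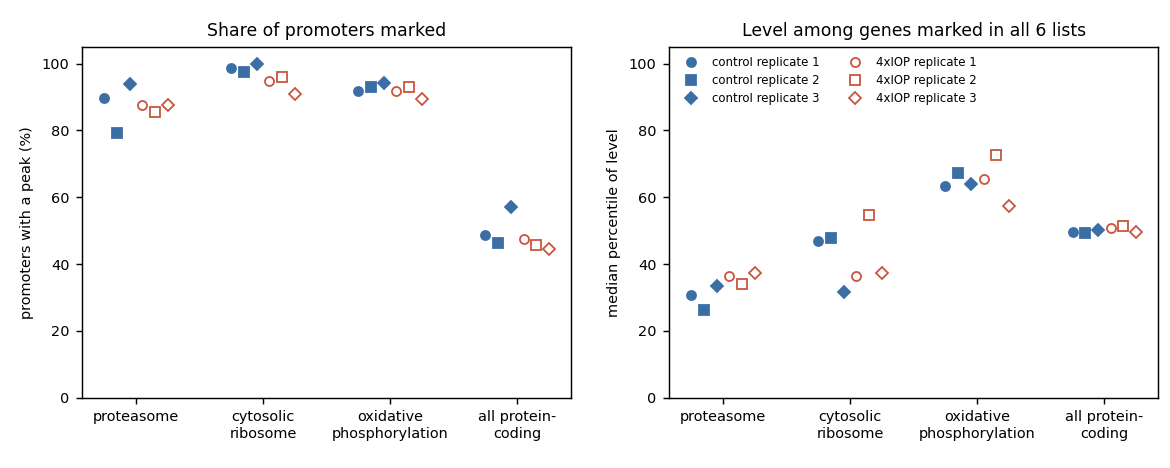
Left, share of promoters with a peak (%), and right, median percentile of the level among the 8669 genes marked in all 6 lists, for 3 gene sets and all protein-coding genes, with 1 symbol per list (filled, control and open, 4xIOP). Proteasome genes are marked more often than all genes in every list, while their levels lie at the 26.3rd to 37.5th percentile.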

How the data were processed

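H3K27ac ChIP-seq of 6 retinas was deposited as 1 peak list per retina, called for that retina alone. Per the labels, the submitters' processing notes name STAR 2.7.8a, MACS2, bedtools 2.29.2 and mm10, among others, with no role or order. Each peak was deposited with an integer score, a fold enrichment (the ratio of fragments piled up at the summit to those of the surroundings), a −log10 p-value, a −log10 q-value and a summit position. Score was not used, since in over 99% of peaks it was 10 times the −log10 q-value. Read counts were not analysed here.

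Summit fragments were recovered from the deposited fold and p by a Poisson model with 1 pseudo-fragment on either side of the ratio, and whole numbers fitted 100% of peaks within 0.001 (−log10 p). Each list's genome mean was its lowest local background, and the level of a gene was the fragments of its strongest promoter peak over this mean. The fewest fragments at any summit were 9 to 12 per list, which sets what could be called. Peaks on chromosomes 1 to 19, X and Y and the GENCODE vM21 basic annotation (21938 protein-coding genes, 41525 TSS positions) were used, with an overlap of at least 1 bp. Groups were compared by limma 3.58.1 (R 4.3.3), tested on simulated data with 200 changed features. No pair of lists shared more than 1 identical peak.

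The members and lists were chosen with earlier results of these data known. Values in every list are given for members marked in fewer than 6 lists, the 8 highest and 5 lowest mean levels, the 3 members per direction with the smallest limma p on region ranks, and Psmb5, Psmb6 and Psmb7. Motif shares over all genes used the first RefSeq window of each gene, and those of members the window nearest to the median summit. Ribosomal protein and oxidative phosphorylation genes were taken by symbol. Alternatives covered the peak threshold, the number of peaks, centring, the promoter width, each list left out and a replicate block. The values of 1 listed pathway gene are not reported here.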

Additional observations from a re-analysis of the deposited data

How the results depend on the processing

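The count of members called by limma was 0 in each of the 3 fits with a −log10 q of at least 5, with the strongest 16195 peaks of every list, when any 1 list was dropped, with a term for the class of the shortest peak length (above or below 200 bp, chosen after the data were seen) and with a replicate block. It was also 0 without centring and with a promoter of 1 kb, both run for the level and the covered length, with quantile normalization, run for the level, and with ranks of summit fragments, run for the regions. Without centring, the median difference over members turned from 0.05 to -0.21 on the log2 level and from 0.01 to -0.31 on the log2 covered length, where the medians over all genes were -0.27 and -0.30. Without centring, the log2 level difference of Psmc2 was -0.033 and that of Psmc5 -0.00195. With 1 list left out, the median over members ranged from -0.08 to 0.18 on the region score, from 0.03 to 0.09 on the log2 level and from -0.01 to 0.04 on the log2 covered length. The difference in the share of marked members, -0.69 percentage points, was -4.86 when control replicate 2 was left out and 2.43 when control replicate 3 was, the extremes over the 6 lists. Over all genes the difference in these runs was -6.87 and -1.48. Taking only control replicate 3 and 4xIOP replicate 3, whose carried names match their labels, the share of marked members was 6.25 percentage points lower in 4xIOP (-6.25), against -12.3 over all genes, and 3 of 48 members (6.25%) were marked in that control list alone, against 12.5% of all genes.

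With the replicate block the median over members on the region score was 0.08, and no call changed. The correlations of the deviations of same-numbered lists were -0.06, 0.02 and -0.02. These cannot decide whether such lists were paired, since summit counts are low and counting noise can hide a shared mouse. Psmc2 had no value with a promoter of 1 kb and Psmd4 none with a −log10 q of at least 5. With 3 lists a group the median standard error of a member was 0.18 on the log2 level. On simulated data, the smaller of the changes tried exceeded the estimates of all members. Such changes were not recovered in the region and covered length fits, so a count of 0 there says little about the members. Most of them were recovered in the level fit, and most of the larger ones in all 3 fits. Changes as small as the estimates of the members were not tried, so a count of 0 in the level fit does not exclude them either.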
